A study of Mus musculus with 13 samples.

Results

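The genes of MHC class II presentation were examined in RNA-Seq data of sorted brain myeloid cells, as 10 genes chosen by name: the class II chains H2-Aa, H2-Ab1 and H2-Eb1, the invariant chain Cd74, the loading factor subunits H2-DMa and H2-DMb1, the transactivator Ciita, and the co-stimulatory genes Cd80, Cd86 and Cd40. All 10 were among the 52636 genes listed for every mouse, and all 10 passed the filter on low counts that left 17086 genes for testing. Cells had been purified by FACS from cortex and hippocampus as CD11b+, CD45+, Ccr2- and Ly6g-, a gate that takes microglia together with other resident myeloid cells and leaves out cells that display Ccr2 or Ly6g. There were 7 PS2APP;Trem2wt mice (5 females and 2 males; genotype label PS2APP) and 6 PS2APP;Trem2ko mice (5 females and 1 male; label PS2APP;Trem2KO), all aged between 14 and 15 months. Mice of both genotypes carried the PS2APP transgenes, which lead to β-amyloid plaques. The transgenes code for human presenilin 2 and human amyloid precursor protein with familial Alzheimer's disease mutations. The PS2APP;Trem2ko mice were in addition homozygous for a null allele of Trem2, a lipid-binding receptor of microglia. Both groups therefore carried plaques, no nontransgenic group is analysed here, and the Trem2 deletion is not limited to one cell type.

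MHC class II is a heterodimer of an α and a β chain that shows peptides from endocytosed protein to CD4+ T cells. The chains are assembled with the invariant chain, which blocks the groove until cathepsins digest it, and H2-DM then exchanges the remaining fragment for peptide. The transactivator Ciita, itself induced by interferon γ, in part through Irf1, does not touch DNA but docks onto the RFX, CREB and NF-Y factors bound at the X and Y boxes of class II promoters, while Cd80 and Cd86 provide the second signal through Cd28 and Cd40 receives Cd40 ligand from T cells. In the resting brain most microglia carry little class II, and the perivascular, meningeal and choroid plexus macrophages and dendritic cells carry more.

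The promoters of the class II chains are shown because the chains moved together across the mice, as described further on. RefSeq promoters (GRCm38.p6, 250 bases before to 50 after the start) were listed for 5 of the 10 genes: H2-Aa, H2-Eb1, H2-DMa, H2-DMb1 and Cd80. The 150 bases before the start of H2-Aa (chr17:34287824-34287973, minus strand) and of H2-Eb1 (chr17:34305717-34305866, plus strand) are given 5′ to 3′, with matches to the Y box letters TGATTGG and the X box letters TAGNAAC in capitals.
H2-Aa: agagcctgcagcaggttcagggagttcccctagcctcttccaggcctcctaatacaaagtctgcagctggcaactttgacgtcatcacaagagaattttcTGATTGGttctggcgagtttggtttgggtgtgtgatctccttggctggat
H2-Eb1: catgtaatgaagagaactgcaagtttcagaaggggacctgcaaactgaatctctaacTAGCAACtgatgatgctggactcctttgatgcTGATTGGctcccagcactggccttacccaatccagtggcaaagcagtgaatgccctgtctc

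Both motifs were searched on both strands and do not overlap each other in these windows. The X letters were chosen with these promoters in view. The Y letters were in 7.82% and the X letters in 11.4% of the 32851 promoters listed for all genes. H2-Eb1 and H2-DMb1 held both, with the X letters beginning 93 and 96 bases before the start and the Y letters following 32 and 33 bases further on. H2-Aa held the Y letters, beginning 50 bases before its start, and no match to the X letters. A search for 1 fixed pattern cannot show that an X box with other letters is absent. Neither listed promoter of H2-DMa, nor that of Cd80, held a match. Among all promoters, 15 entries (0.0457%) had the X letters followed on the gene's strand by the Y letters within 50 bases. Besides H2-Eb1 and H2-DMb1 they included H2-Ob, the β chain of the H2-DM inhibitor H2-O. They also included genes outside class II presentation, such as Ankrd54, Dnmt1 and S100a6. Since the X letters were chosen with these promoters in view, the share does not measure how specific the pair is to class II genes. The stretch from X to Y is printed for the pair with the same X letters, H2-Eb1 (chr17:34305774-34305812) and H2-Ob (chr17:34238816-34238852), to show the bases in between.
H2-Eb1: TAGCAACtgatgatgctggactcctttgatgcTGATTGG
H2-Ob: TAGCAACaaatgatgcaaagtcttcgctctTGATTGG

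Libraries held 26120961 to 120569609 counts on genes. Trem2 was at 818 to 1244 nRPKM in PS2APP;Trem2wt mice and at 0.393 to 2.29 nRPKM in PS2APP;Trem2ko mice, where nRPKM is the length- and depth-scaled read count (RPKM) that the authors adjusted with a size factor. The sorted cells had the defining microglial genes at high level: the summed nRPKM of 9 microglia markers was 14370 to 17778 in PS2APP;Trem2wt and 15053 to 16815 in PS2APP;Trem2ko mice. Of the 9, only Cx3cr1, the fractalkine receptor, passed the test between genotypes, at 1266 to 1677 nRPKM in PS2APP;Trem2wt and 894 to 1280 nRPKM in PS2APP;Trem2ko mice (log2 fold change -0.49, SE 0.086, edgeR adjusted p = 0.00670), with 5 of the 6 PS2APP;Trem2ko mice below every PS2APP;Trem2wt mouse.

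The class II chains, Cd74 and Ciita differed far more from mouse to mouse than between genotypes. H2-Ab1 (ENSMUSG00000073421, chr17:34257689-34269419), the β chain of the I-A molecule, was at 40.5 nRPKM in the lowest, 123 in the median and 549 in the highest of the 7 PS2APP;Trem2wt mice, and at 57.0, 77.2 and 743 in the 6 PS2APP;Trem2ko mice. The genotypes overlapped over nearly the whole range, with 1 PS2APP;Trem2ko mouse above every PS2APP;Trem2wt mouse. The fitted log2 fold change, PS2APP;Trem2ko over PS2APP;Trem2wt, was 0.02 (SE 0.72, edgeR quasi-likelihood test, adjusted p = 0.992), and its 95% interval ran from -1.50 to 1.55.

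H2-Aa (ENSMUSG00000036594, chr17:34282744-34287823), the α chain that pairs with H2-Ab1, had its lowest, median and highest values at 21.1, 81.4 and 386 nRPKM in PS2APP;Trem2wt mice and at 22.7, 42.2 and 582 nRPKM in PS2APP;Trem2ko mice. The groups again overlapped, and edgeR gave a log2 fold change of 0.09 (SE 0.82, interval -1.65 to 1.82, adjusted p = 0.974). H2-Eb1 (ENSMUSG00000060586, chr17:34305867-34316674), the β chain of the I-E molecule, was at 13.8, 41.4 and 157 nRPKM in PS2APP;Trem2wt mice and at 16.7, 24.8 and 249 nRPKM in PS2APP;Trem2ko mice. Its log2 fold change was 0.22 (SE 0.71, interval -1.29 to 1.73, edgeR adjusted p = 0.926). H2-Ea-ps, the α chain gene of I-E, which is a pseudogene in C57BL/6 mice, had 0 counts in all 13 mice, so that H2-Eb1 RNA was present without RNA of its partner chain.

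Cd74 (ENSMUSG00000024610, on chromosome 18), the invariant chain, had the highest mean of the members, although Cd86 was above it in PS2APP;Trem2wt mouse 4 and PS2APP;Trem2ko mice 5 and 6. Its lowest, median and highest values were 138, 402 and 1709 nRPKM in PS2APP;Trem2wt mice and 120, 209 and 2336 nRPKM in PS2APP;Trem2ko mice. The log2 fold change was 0.06 (SE 0.75, interval -1.53 to 1.65, edgeR adjusted p = 0.980), and 1 PS2APP;Trem2ko mouse was below and 1 above every PS2APP;Trem2wt mouse. Ciita (ENSMUSG00000022504, chr16:10480059-10528418) had the lowest mean, at 0.144, 0.240 and 1.89 nRPKM in PS2APP;Trem2wt mice (29 to 1025 counts) and 0.0670, 0.165 and 2.29 nRPKM in PS2APP;Trem2ko mice (25 to 1085 counts). It too gave no genotype difference beyond the spread between mice, with a log2 fold change of -0.11 (SE 0.80, interval -1.82 to 1.60, edgeR adjusted p = 0.968). In sorted bulk RNA, a change in the number of cells that express these genes and a change in RNA per cell cannot be told apart.

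**Figure D1:**
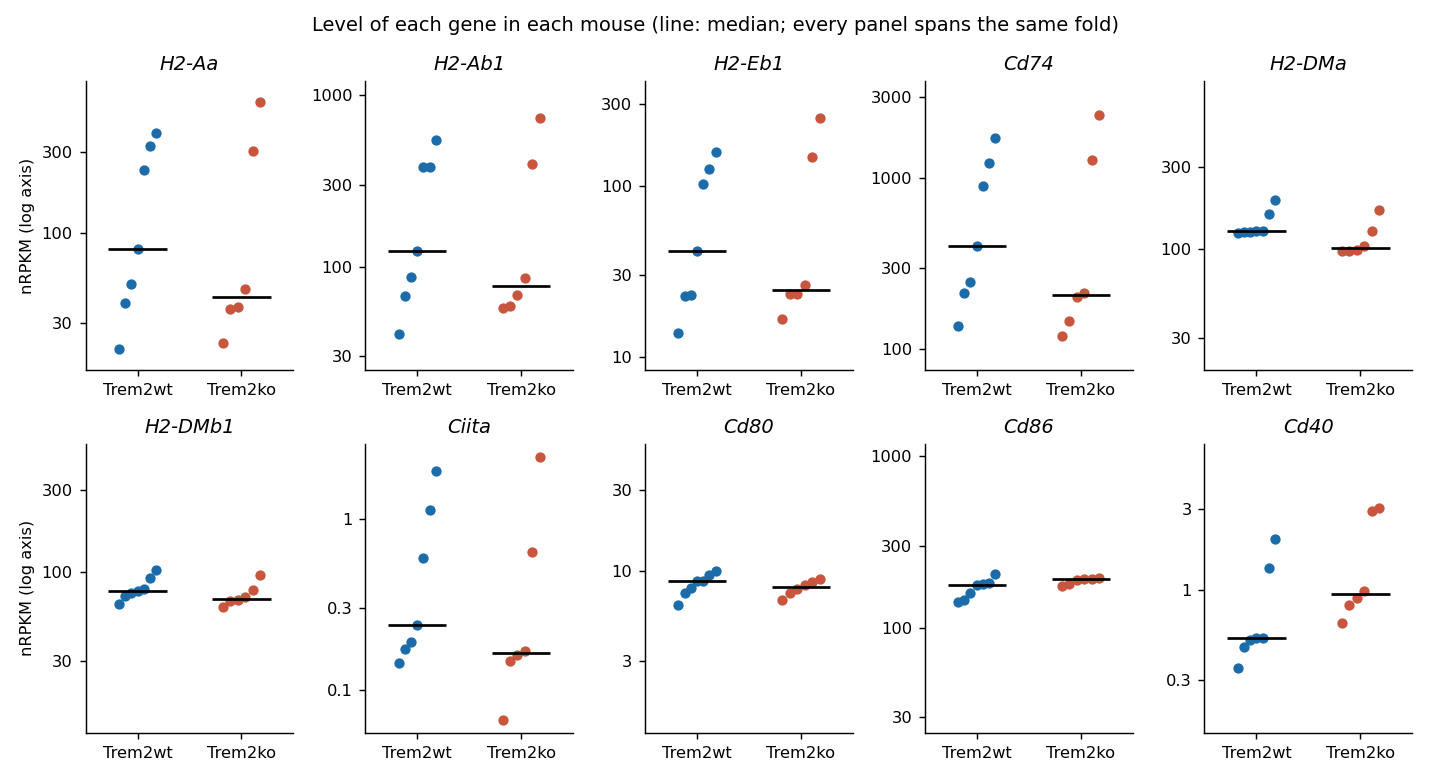
Level of the 10 genes in each mouse (nRPKM, log axis, every panel spanning the same fold), by genotype, with a line at the median. H2-Aa, H2-Ab1, H2-Eb1, Cd74 and Ciita spread over 18.1-fold to 34.2-fold in both genotypes together, while Cd86 and Cd80 stay within 1.46-fold and 1.59-fold.

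The loading factor had narrow ranges. H2-DMa (ENSMUSG00000037649, chr17:34119541-34139101) was at 124, 126 and 192 nRPKM (lowest, median, highest) in PS2APP;Trem2wt mice and at 96.7, 101 and 168 nRPKM in PS2APP;Trem2ko mice. In 4 of the 6 PS2APP;Trem2ko mice it was below every PS2APP;Trem2wt mouse, and the other two were within the PS2APP;Trem2wt range. The log2 fold change of -0.28 (SE 0.14, interval -0.59 to 0.03) did not pass the test (edgeR, unadjusted p = 0.0724, adjusted p = 0.391). H2-DMb1 (ENSMUSG00000079547, chr17:34153072-34160230), the partner subunit, was at 65.4, 77.0 and 103 nRPKM in PS2APP;Trem2wt mice and at 62.8, 69.9 and 95.6 nRPKM in PS2APP;Trem2ko mice. Its log2 fold change was -0.12 (SE 0.11, interval -0.36 to 0.12, adjusted p = 0.667 by edgeR), and 22.7% of its 50-base transcript words also occur in transcripts of other genes, mostly H2-DMb2, so that its count is uncertain to that extent (8.43% for H2-DMa, mostly Brd2).

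Among the co-stimulatory genes, Cd86 (ENSMUSG00000022901, chr16:36603869-36666081), the main B7 ligand of resting myeloid cells, was abundant and steady. Its lowest, median and highest values were 140, 177 and 205 nRPKM in PS2APP;Trem2wt mice and 175, 191 and 196 nRPKM in PS2APP;Trem2ko mice. The PS2APP;Trem2ko mice lay inside the PS2APP;Trem2wt range, and the log2 fold change was 0.14 (SE 0.084, interval -0.04 to 0.32, adjusted p = 0.460 by edgeR). Cd80 (ENSMUSG00000075122, chr16:38455561-38496335), the other B7 ligand, was at 6.30, 8.77 and 10.004 nRPKM in PS2APP;Trem2wt mice and at 6.81, 8.11 and 8.97 nRPKM in PS2APP;Trem2ko mice, with a log2 fold change of -0.07 (SE 0.11, interval -0.30 to 0.15, edgeR adjusted p = 0.809).

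Cd40 (ENSMUSG00000017652, chr2:165055627-165072948), a receptor of the TNF receptor family, had the largest log2 fold change of the 10 genes in size. It was at 0.350, 0.525 and 1.996 nRPKM in PS2APP;Trem2wt mice (40 to 615 counts) and at 0.644, 0.952 and 3.02 nRPKM in PS2APP;Trem2ko mice (156 to 786 counts). Both genotypes had mice at high level, 2 of the PS2APP;Trem2ko mice were above every PS2APP;Trem2wt mouse, and none was below. The log2 fold change was 0.91 (SE 0.47, interval -0.09 to 1.91), which did not pass the test (edgeR, unadjusted p = 0.0729, adjusted p = 0.392).

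With the genotypes compared by edgeR, 0 of the 10 members were lower and 0 were higher in PS2APP;Trem2ko cells at an adjusted p of 0.05, beside 1.53% of all tested genes called lower and 0.503% called higher. At an unadjusted p of 0.05 the count was also 0, beside 7.56% of all tested genes lower and 7.29% higher, and voom with limma, DESeq2 and limma on nRPKM values called 0. The nRPKM values of the genotypes overlapped in all 10, where 1.62% of all tested genes had no overlap. The median log2 fold change of the 10 was 0.04, beside 0.00389 over all tested genes, with 6 above and 4 below 0. For H2-Aa, H2-Ab1, H2-Eb1, Cd74 and Ciita each interval covered at least -1.29 to 1.55 on the log2 scale. Differences within that range were therefore not excluded for these genes. The intervals of H2-DMa, H2-DMb1, Cd80 and Cd86, in contrast, lay between -0.59 and 0.32. A genotype by sex term rests on the single PS2APP;Trem2ko male, so it cannot decide whether the genotype difference depends on sex.

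**Figure D2:**
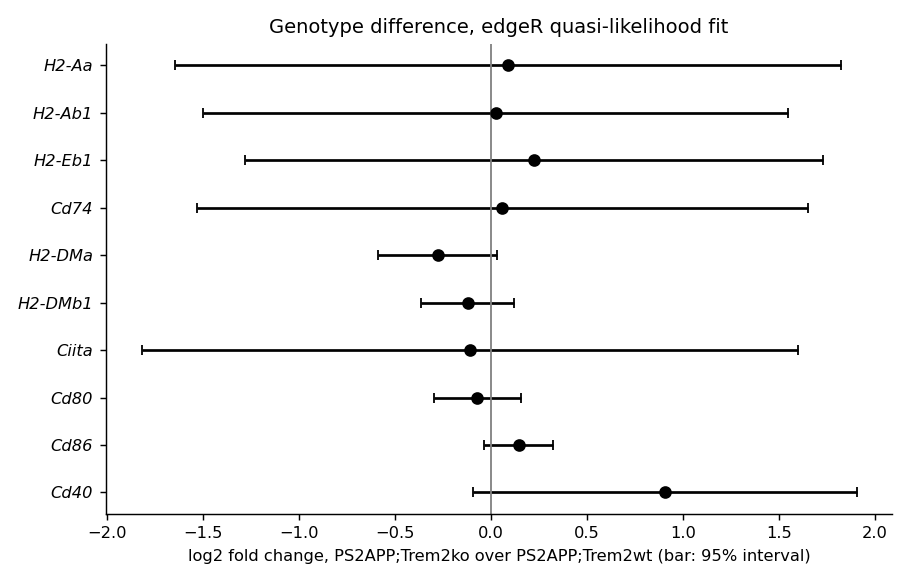
Log2 fold change of each gene, PS2APP;Trem2ko over PS2APP;Trem2wt, with its 95% interval from the edgeR fit. All 10 intervals include 0, and those of the class II chains, Cd74 and Ciita are the widest, for example -1.50 to 1.55 for H2-Ab1.

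The spread between mice of a genotype can be expressed as the biological coefficient of variation, the relative spread that remains after counting noise. It was 0.947 for H2-Aa, 0.839 for H2-Ab1, 0.833 for H2-Eb1, 0.873 for Cd74 and 0.946 for Ciita, against a median of 0.205 over all tested genes. Set against the trend for genes of equal abundance, these were 6.74, 5.91, 6.06, 5.96 and 3.08 times the trend, and for each of the 5 genes at least 99.7% of tested genes had a lower ratio. Cd40 had 1.94 times the trend (0.579), H2-DMa 1.32 times (0.186) and H2-DMb1 1.07 times (0.148). Cd80 and Cd86, at 0.142 and 0.117, were below it, at 0.802 and 0.817 times.

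**Figure D3:**
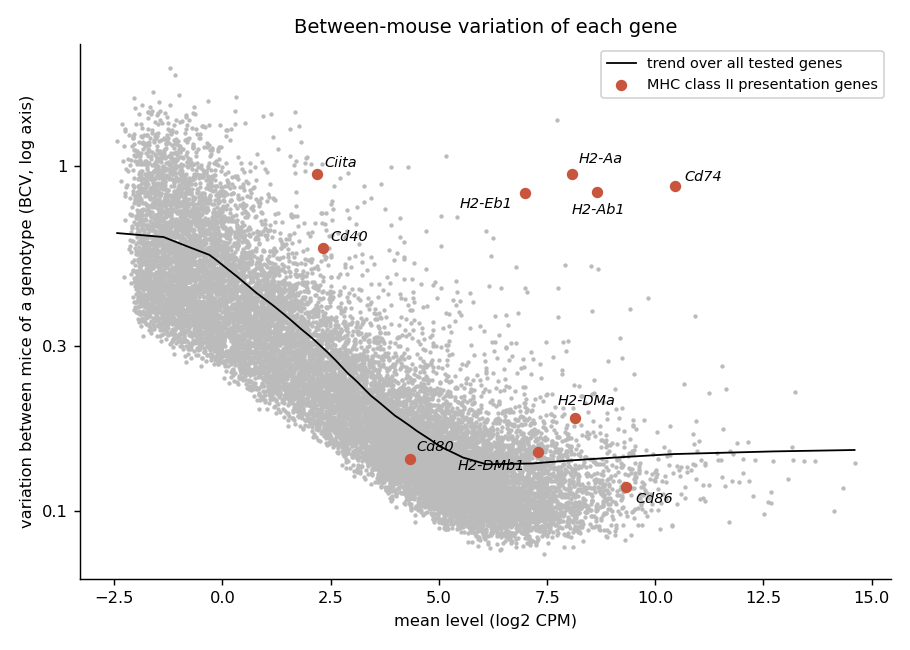
Biological coefficient of variation between mice of a genotype (log axis) against mean level (log2 CPM) for all 17086 tested genes, with the trend as a line and the 10 members in red. H2-Aa, H2-Ab1, H2-Eb1 and Cd74 lie between 0.833 and 0.947, about 6 times the trend, and Cd86 lies under it at 0.117.

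The mice formed separate ranges for the class II chains. H2-Ab1 was at 380, 383 and 549 nRPKM in PS2APP;Trem2wt mice 1, 2 and 3 and at 743 and 400 nRPKM in PS2APP;Trem2ko mice 2 and 3. In the remaining 8 mice it was at 123 nRPKM or less, a 3.10-fold gap. The mice above the gap thus included 3 PS2APP;Trem2wt and 2 PS2APP;Trem2ko animals, 4 females and 1 male, with total counts from 26120961 to 79883820, and the mice below it were 6 females and 2 males with 27588202 to 120569609. Mice are numbered in the order of their records, and the labels name no processing day or litter. By the study's methods, mice were mostly handled in pairs of 1 animal per genotype from perfusion to sorting, but the labels do not say which, so the part of processing in these ranges was not tested.

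The same 5 mice were the highest for H2-Aa, H2-Eb1, Cd74 and Ciita, each with its widest gap at the same place. The gap was 2.86-fold for H2-Aa (81.4 to 233 nRPKM), 2.48-fold for H2-Eb1 (41.4 to 103), 2.23-fold for Cd74 (402 to 897) and 2.47-fold for Ciita (0.240 to 0.593). None of the remaining members had these 5 as its highest mice. H2-DMa was highest in PS2APP;Trem2wt mouse 3, PS2APP;Trem2ko mouse 2 and PS2APP;Trem2wt mouse 1, at 192, 168 and 160 nRPKM, and these 3 mice were also the highest for H2-DMb1, at 103, 95.6 and 91.8 nRPKM. Cd40 was highest in PS2APP;Trem2ko mice 3 and 2, at 3.02 and 2.92 nRPKM, and in PS2APP;Trem2wt mouse 3, at 1.996 nRPKM.

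Not all members were high in the mice above the gap. In PS2APP;Trem2wt mouse 2, H2-Ab1 and Cd74 were at 383 and 1220 nRPKM, but Ciita, at 0.593 nRPKM, was the lowest of the 5, and Cd40, at 0.513 nRPKM, and H2-DMa, at 125 nRPKM, lay among the values of the mice below the gap. H2-DMa and H2-DMb1 of PS2APP;Trem2ko mouse 3, at 126 and 78.2 nRPKM, also lay among those values, while its Cd40 was the highest of all.

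**Figure D4:**
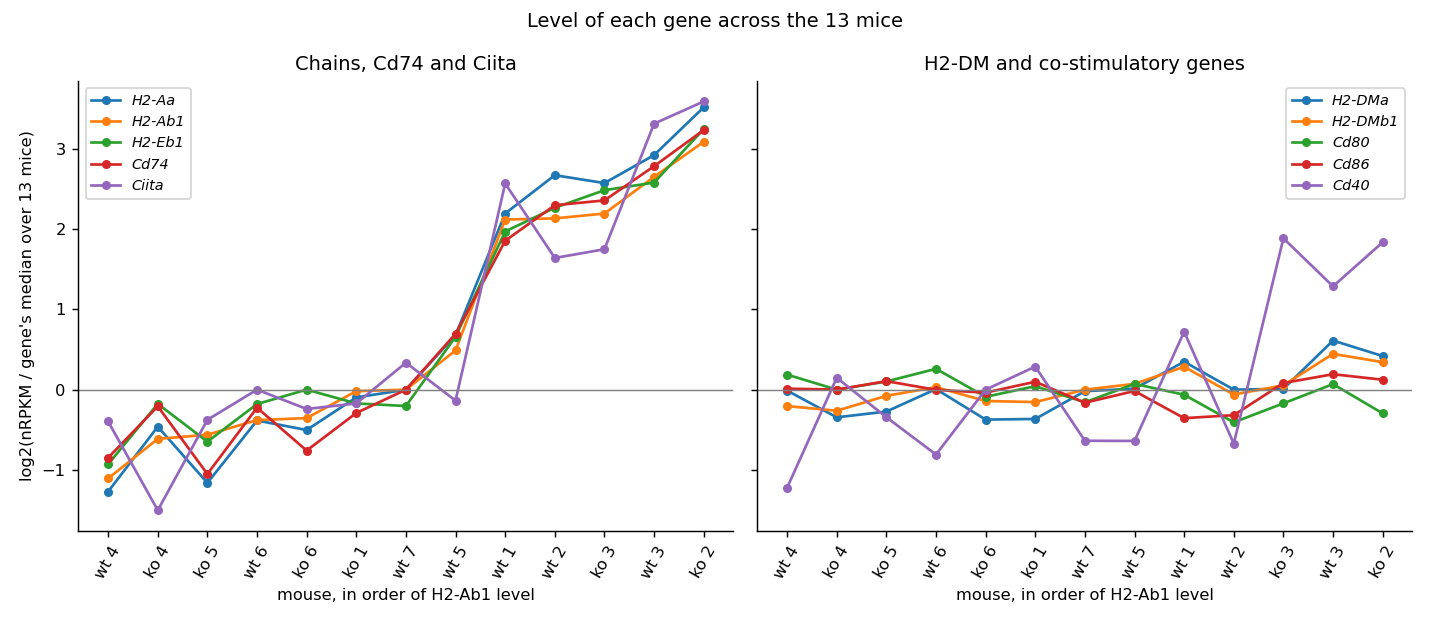
Level of each gene in the 13 mice as the log2 ratio to its own median, with mice in the order of H2-Ab1 (wt, PS2APP;Trem2wt; ko, PS2APP;Trem2ko). H2-Aa, H2-Ab1, H2-Eb1, Cd74 and Ciita step up together between PS2APP;Trem2wt mouse 5 and mouse 1, and Cd40 is high in 4 of the 5 mice to the right. Cd80 and Cd86 change little, and Cd80 is lowest in PS2APP;Trem2wt mouse 2 and PS2APP;Trem2ko mice 2 and 3 (6.30, 6.81 and 7.42 nRPKM), which lie to the right.

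Within a mouse the class II genes kept close proportions. The ratio of H2-Eb1 to H2-Ab1 nRPKM was between 0.261 and 0.407 (median 0.336), that of Cd74 to H2-Ab1 between 2.02 and 3.77 (median 3.14), and that of H2-Aa to H2-Ab1 between 0.384 and 0.846 (median 0.613). These ratios thus varied 1.56-fold, 1.86-fold and 2.20-fold over mice whose H2-Ab1 varied 18.3-fold. The ratio of Ciita to H2-Ab1 varied 3.03-fold, whereas those of H2-DMa, H2-DMb1, Cd86, Cd80 and Cd40 varied between 11.9-fold and 25.6-fold.

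Because of the gap, no correlation with a p-value is given over all mice, and the 5 mice above it are too few for one. Among the 8 mice below it, the genotype-centred log2 levels of H2-Aa followed those of H2-Ab1 (Pearson r = 0.941, Spearman rho = 0.857, two-sided exact permutation p = 0.00114 and 0.0107, adjusted over 14 relations 0.0160 and 0.150), with r = 0.748 without the 2 mice farthest from the median. H2-Eb1 and Cd74 had r = 0.876 and 0.837 (rho = 0.714 and 0.619, exact permutation p of r 0.0109 and 0.0108, adjusted 0.0510 for both), which fell to r = 0.328 and 0.370 without those 2 mice, so these relations rest on them. Cd40 had r = 0.759 (adjusted exact permutation p = 0.0858) and H2-DMb1 r = 0.746 (adjusted p = 0.0924 by the same permutation), and neither passed. For Ciita, H2-DMa, Cd80 and Cd86 r was 0.464, -0.07, -0.43 and -0.20, with adjusted permutation p-values between 0.443 and 0.915. Spearman's rho passed after adjustment for none of the 14.

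Over both genotypes, the mean levels ran in the order Cd74 (701 nRPKM), H2-Ab1 (234), Cd86 (178), H2-Aa (166), H2-DMa (128), H2-DMb1 (77.5), H2-Eb1 (74.9), Cd80 (8.22), Cd40 (1.16) and Ciita (0.602). Neighbours differed beyond their spread over the 13 mice, by an exact sign-flip permutation test of the within-mouse log2 ratio, for Cd74 over H2-Ab1, H2-DMa over H2-DMb1, H2-Eb1 over Cd80 and Cd80 over Cd40 (adjusted p = 0.000549 each, in this order in 13 of 13 mice) and for Cd40 over Ciita (adjusted p = 0.00132, 12 of 13 mice). The neighbours H2-Ab1 and Cd86, Cd86 and H2-Aa, H2-Aa and H2-DMa, and H2-DMb1 and H2-Eb1 were not told apart (adjusted permutation p between 0.0923 and 0.504), since H2-Ab1, H2-Aa and H2-Eb1 changed places with the steadier genes from mouse to mouse.

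The genes around the members in the pathway were largely without genotype differences. Of 9 tested genes of loading and antigen processing, 0 passed the edgeR test in either direction, adjusted or unadjusted (median log2 fold change -0.16). The nearest were Ctsd, a lysosomal protease, with a log2 fold change of -0.20 (unadjusted p = 0.0553), and H2-Ob, with -0.20 (unadjusted p = 0.0712). Ctss, the cathepsin that trims the invariant chain, was at 4755 to 7351 nRPKM in PS2APP;Trem2wt and 5352 to 6967 nRPKM in PS2APP;Trem2ko mice, above Cd74 in every mouse. H2-Oa, the α chain of the H2-DM inhibitor, was at 16.7 to 50.1 nRPKM over the 13 mice and was highest in the 5 mice above the H2-Ab1 gap, at 37.6 nRPKM or more, but H2-Ob, at 17.7 to 30.6 nRPKM, spread less.

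Of 7 genes for factors bound at class II promoters, 1 was lower and 0 were higher. Nfya, a subunit of the Y box factor NF-Y, was at 1.63, 2.47 and 3.12 nRPKM (lowest, median, highest) in PS2APP;Trem2wt mice and at 1.03, 1.53 and 1.76 nRPKM in PS2APP;Trem2ko mice, with a fitted log2 difference of -0.74 (SE 0.17) that passed the edgeR test (adjusted p = 0.0319). The groups overlapped slightly, and the edgeR call was lost on leaving out any 1 of 8 mice, PS2APP;Trem2wt mice 3, 5, 6 or 7 or PS2APP;Trem2ko mice 1, 3, 5 or 6 (adjusted p up to 0.0733). Its partners Nfyb and Nfyc had log2 fold changes of -0.05 and -0.02, and the X box factors Rfx5, Rfxap and Rfxank 0.01, 0.13 and -0.02, none of which passed.

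Of 11 genes from the interferon γ receptor to Ciita, 0 passed in either direction (1 lower at an unadjusted p of 0.05). That one was Spi1, a myeloid transcription factor, with a log2 fold change of -0.24 (edgeR adjusted p = 0.212), and Irf4, a transcription factor of the interferon regulatory family, had 0.47 (adjusted p = 0.396). Irf1, a transcription factor induced by interferon γ, was at 19.4 to 42.0 nRPKM in PS2APP;Trem2wt and 24.5 to 50.7 nRPKM in PS2APP;Trem2ko mice. Its 4 highest values were those of PS2APP;Trem2ko mouse 2, PS2APP;Trem2wt mouse 3, PS2APP;Trem2ko mouse 3 and PS2APP;Trem2wt mouse 1 (50.7, 42.0, 37.4 and 31.3 nRPKM), all above the H2-Ab1 gap, and it was lowest of all in PS2APP;Trem2wt mouse 2, at 19.4 nRPKM. Irf1 was picked out for this after its values were seen.

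Of the 5 genes of class II turnover, 0 passed (1 higher at an unadjusted p of 0.05). Il10rb, a chain of the receptor for interleukin 10, had a log2 fold change of 0.16 (edgeR adjusted p = 0.322), and March8, a ubiquitin ligase that sends surface proteins to the lysosome, had 0.08 (adjusted p = 0.643). Of 10 tested ligands and adhesion molecules of T cells, 0 passed (2 lower and 1 higher at an unadjusted p of 0.05). Cd276, a B7 family member, was at 9.03 to 12.1 nRPKM in PS2APP;Trem2wt and 3.83 to 10.4 nRPKM in PS2APP;Trem2ko mice, a log2 fold change of -0.52 (edgeR adjusted p = 0.186), and Lgals9, which codes for galectin, had 0.18 (adjusted p = 0.271). Tnfsf4 and Cd70 had 0 counts in every mouse. Of 10 genes of Cd40 signalling, 0 passed (2 lower at an unadjusted p of 0.05), the nearest being the NF-κB subunits Rela, with a log2 fold change of -0.16 (edgeR adjusted p = 0.229), and Nfkb2, with -0.34 (adjusted p = 0.260).

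Since border macrophages and dendritic cells are rich in class II, their markers were set beside the members. By the study's methods, the choroid plexus, and the meninges as far as possible, were taken off before dissociation. The sorted cells are described there as almost all microglia, with a small share of perivascular macrophages. The summed level of 9 border macrophage markers was 14.2 to 41.4 nRPKM in PS2APP;Trem2wt and 24.8 to 59.96 nRPKM in PS2APP;Trem2ko mice, and F13a1 was the most abundant in its median, at 6.57 and 6.90 nRPKM. All 9 were above 0 in every mouse. The sum of 9 dendritic cell markers was 10.8 to 20.6 and 15.7 to 35.6 nRPKM, led by Batf3 at medians of 8.94 and 8.28 nRPKM. Most of this sum was Batf3 and Cd209a, the latter at medians of 5.81 and 5.73 nRPKM. Flt3, Xcr1 and Clec9a were each at 0.681 nRPKM or less in every mouse. Neither sum differed between genotypes beyond the spread between mice (difference 0.24 and 0.20 log2 units, two-sided exact permutation test over 1716 splits, adjusted p = 0.631 for both).

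In the 5 mice above the H2-Ab1 gap the border macrophage sum was 27.1 to 59.96 nRPKM and the dendritic cell sum 15.9 to 35.6 nRPKM, and in the 8 mice below it they were 14.2 to 45.3 and 10.8 to 18.5 nRPKM, so that the ranges overlapped. The mouse with the most H2-Ab1 did not have the highest sums. PS2APP;Trem2ko mouse 2, at 743 nRPKM of H2-Ab1, had 27.1 nRPKM of border macrophage and 15.9 nRPKM of dendritic cell markers, less than the 45.3 and 18.5 nRPKM of PS2APP;Trem2ko mouse 1, whose H2-Ab1 was 86.2 nRPKM. PS2APP;Trem2ko mouse 3, with the highest sums of all (59.96 and 35.6 nRPKM), also was above the gap, at 400 nRPKM of H2-Ab1. Among the 8 mice below the gap the border macrophage sum had r = 0.637 with H2-Ab1 (adjusted exact permutation p = 0.200) and 0.120 without the 2 farthest mice, and for the dendritic cell, monocyte and B cell sums r was 0.404, 0.156 and -0.00027 (adjusted permutation p between 0.443 and 0.9995). Monocyte markers, 7 genes led by Chil3 at medians of 3.99 and 2.63 nRPKM, summed to 7.16 to 25.3 nRPKM above the gap and 2.87 to 12.2 nRPKM below it. Of these, Ly6c2 was highest in the same 5 mice as H2-Ab1, at 0.875 nRPKM or more against 0.776 or less, and was singled out after its values were seen. The microglia marker sum was lowest in PS2APP;Trem2wt mouse 2 (14370 nRPKM), PS2APP;Trem2ko mouse 3 (15053), PS2APP;Trem2ko mouse 2 (15105) and PS2APP;Trem2wt mouse 1 (15187), all above the H2-Ab1 gap, and the fifth mouse above it, PS2APP;Trem2wt mouse 3, was at 17709 nRPKM, near the highest. The part of any of these cells in the level of the members was not tested.

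B cell markers summed to 279 to 394 nRPKM, of which nearly all was Ighm (medians 306 and 323 nRPKM) and Cd79b, while Pax5 was at 0 in 12 of 13 mice and Ms4a1 in 10. The T cell genes were low, and 1 of the 8 was highest in the same 5 mice as H2-Ab1. That gene, Cd3e, a chain of the T cell receptor complex, was at 0.312, 0.408 and 0.444 nRPKM in PS2APP;Trem2wt mice 1, 2 and 3 and 0.910 and 0.411 nRPKM in PS2APP;Trem2ko mice 2 and 3, against 0 to 0.289 nRPKM in the other eight. Cd4 was not higher above the gap (0.0501 to 0.327 nRPKM, against 0 to 0.393 below it). Cd3e was singled out after its values were seen, its count reached 120 at most, and the sort gate did not select T cells. The sum of 8 T cell markers was 0.703 to 4.76 nRPKM in PS2APP;Trem2wt and 0.452 to 3.59 nRPKM in PS2APP;Trem2ko mice. Cd28 led in PS2APP;Trem2wt mice (median 0.978 nRPKM), and in PS2APP;Trem2ko mice Cd3g (median 0.399 nRPKM) was above Cd28 (0.375). The tested T cell genes went both ways between genotypes. Cd28 had a log2 fold change of -1.80 (edgeR adjusted p = 0.110), and Cd3e, Cd3g, Cd4 and Cd8a had 0.61, 0.59, 0.71 and 0.51, none of which passed. The T cell sum was added after the data were seen. It was 2.21 nRPKM or more in each of the 5 mice above the gap. In each of the 8 below the gap it was 1.67 nRPKM or less. Cd28 alone made 1.997 of 3.30, 3.38 of 4.76 and 1.84 of 4.08 nRPKM in PS2APP;Trem2wt mice 1, 2 and 3. In PS2APP;Trem2ko mice 2 and 3 it made 0.403 of 3.59 and 0.730 of 2.21 nRPKM. Whether the mice separate without Cd28 was not tested. The part of the T cell sum in the level of the members was not tested. The sum had r = 0.435 with H2-Ab1 among the 8 mice below the gap (exact permutation p = 0.276, adjusted 0.443). Neutrophil markers, led by Ngp at medians of 20.7 and 12.8 nRPKM, summed to between 0.245 nRPKM in PS2APP;Trem2ko mouse 6 and 214 nRPKM in PS2APP;Trem2wt mouse 2, a mouse above the gap. No marker of these 7 lists was at 0 in every mouse. No marker sum differed between genotypes beyond the spread between mice (adjusted p between 0.630 and 0.828 by the exact permutation test).

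**Figure D5:**
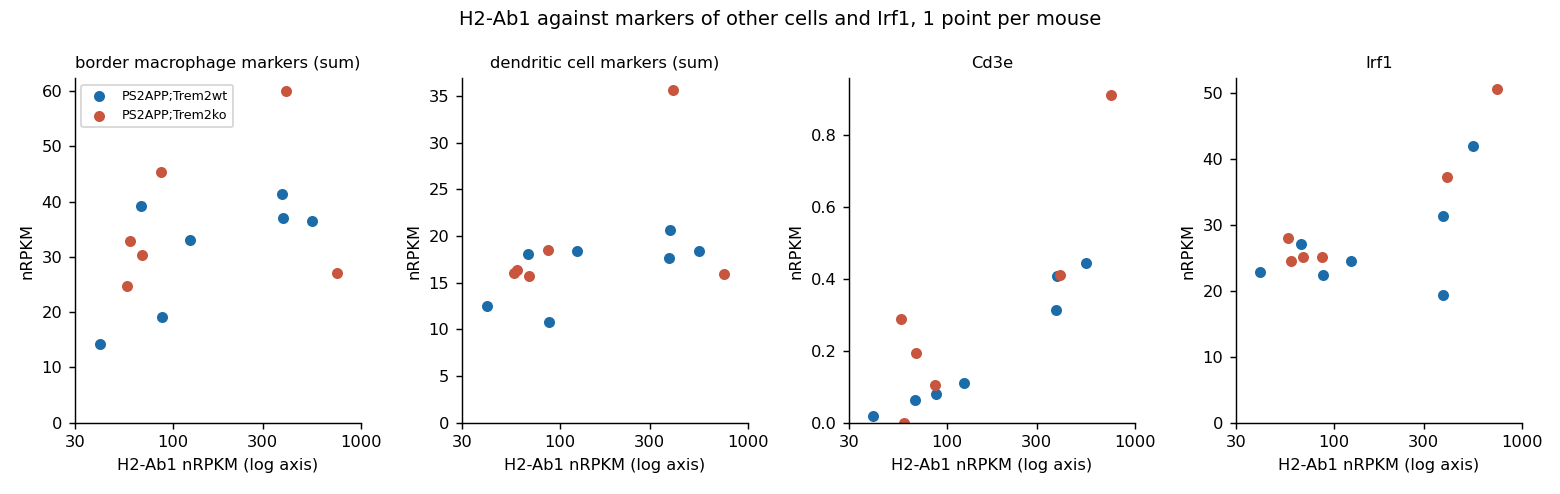
H2-Ab1 (nRPKM, log axis) against the summed border macrophage markers, the summed dendritic cell markers, Cd3e and Irf1 (nRPKM), 1 point per mouse, coloured by genotype. The mouse with the most H2-Ab1 (743 nRPKM) has 27.1 nRPKM of border macrophage markers, in a range of 14.2 to 59.96, and the highest Cd3e and Irf1.

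Genes whose levels went with H2-Ab1 were ranked over 13313 genes by Pearson r of genotype-centred log2 CPM over the 13 mice, as a description in which the gap between mice carries much of each value. Apart from members, the nearest were Rassf7 (r = 0.921), Prdx6 (0.912), Ndufa1 (0.909), Sri (0.908), H2-Oa (0.908), Rnase6 (0.906), AW112010 (0.903), Ccny (0.902), Tspo (0.897) and Kxd1 (0.895). Among members the values were 0.993 for H2-Aa, 0.991 for H2-Eb1, 0.985 for Cd74, 0.949 for Ciita and 0.889 for Cd40. They were 0.838 for H2-DMa, 0.823 for H2-DMb1 and -0.659 for Cd80. The 10 nearest genes spread much less over the mice than H2-Ab1 did: Rassf7 was between 1.53 and 2.81 nRPKM, Tspo, a mitochondrial outer membrane protein, between 23.9 and 59.2 nRPKM, and AW112010 between 15.3 and 56.2 nRPKM. For Cd86 the nearest genes were others, Slc12a7 (r = 0.934), Siae (0.931), Rxrb (0.922), Manba (0.922) and Pygb (0.910), and r with H2-Ab1 was -0.05.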

How the data were processed

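The authors aligned single-end 50-base reads to GRCm38 with GSNAP and deposited, per mouse and gene, unnormalized counts of uniquely aligned reads and nRPKM, which is RPKM after size-factor adjustment. Whether counting used the strand is not given in the sources used here. Libraries were made with a SMART-seq kit from low-input RNA. Gene names and positions are those of GENCODE M21 on GRCm38.

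Counts were filtered with filterByExpr by genotype, scaled by TMM and tested with glmQLFit and glmQLFTest (edgeR 4.0.16, R 4.3.3), with no covariate. SE is the size of the log2 fold change divided by the square root of F. P-values were adjusted by Benjamini-Hochberg over all 17086 genes. Levels, ratios and marker sums used deposited nRPKM, with a pseudocount of 0.1 on the log2 scale. Alternatives were DESeq2 1.42.0, voom with limma 3.58.1, limma on log2(nRPKM) with a pseudocount of 0.1 or 1, size factors by RLE, an unfiltered table, a filter of 10 counts in at least 6 mice, a term for sex, the females alone, and each mouse left out. Tests were checked on simulated data before use. The limit of a count of 0, set at 3 counts or 0.0249 to 0.115 CPM, covers counting error only.

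The members and lists were chosen with earlier results of these data known. Named genes are the members, list genes past the test or else the 2 with the lowest p, the leading marker of each list and its markers at 0, and the genes nearest in r to H2-Ab1 and Cd86. Single values of some listed genes, the leading microglia marker among them, are not reported here. The relation below the gap and the T cell sum were added after the data were seen. March1 and March8 were found under those names. Correlations and exact permutation tests used Python 3.11.15 with numpy 2.4.6 and pandas 2.3.3, and 50-base words were compared on either strand.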

Additional observations from a re-analysis of the deposited data

Results flagged for a closer look

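Ciita in PS2APP;Trem2ko mouse 2, at 2.29 nRPKM, was far from the other PS2APP;Trem2ko mice, its gap to the nearest of them being 0.743 of the range of the group. It was the 1 value flagged among 20 groups of values (10 genes in 2 genotypes), and for normally distributed values chance flags nominally about 1 group in 20. The same mouse had the highest H2-Aa, H2-Ab1, H2-Eb1 and Cd74 of all 13.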

How the results depend on the processing

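The counts of members lower and higher in PS2APP;Trem2ko mice were 0 under every alternative run, other tools, filters and scalings and each mouse left out included. Of 230 recomputed values of single members, 185 kept their sign, 45 turned, and 0 passed the threshold. The lowest p, 0.101, was the unadjusted p of Cd86 in the exact permutation test, and the other alternatives were judged by adjusted p. H2-DMa, H2-DMb1, Cd80, Cd86 and Cd40 kept their sign throughout. The log2 fold changes that turned were those near 0 beside an SE of 0.71 or more. With voom and limma they were -0.38 for H2-Aa, -0.25 for H2-Ab1, -0.16 for H2-Eb1 and -0.40 for Cd74. With limma on log2(nRPKM + 0.1), and as the difference in the exact permutation test on that scale, they were -0.33, -0.22, -0.091 and -0.39, and on log2(nRPKM + 1) -0.32, -0.22, -0.087 and -0.39. With sex as a covariate H2-Aa, H2-Ab1 and Cd74 were at -0.068, -0.14 and -0.12. Log values weigh the mice with high levels less than a fit of counts does, by construction. Leaving out 1 mouse at a time moved H2-Aa between -0.86 and 0.46, H2-Ab1 between -0.80 and 0.39, H2-Eb1 between -0.56 and 0.56, Cd74 between -0.82 and 0.46 and Ciita between -1.42 and 0.49, and the median of the 10 genes between -0.49 and 0.42, each lowest without PS2APP;Trem2ko mouse 2 and highest without PS2APP;Trem2wt mouse 3.

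Among genes for promoter factors, the count of lower genes was 0 with females only (Nfya, adjusted p = 0.116) and between 0 and 1 on leaving out 1 mouse. Among genes from interferon γ to Ciita it was 1 with females only (Spi1, log2 fold change -0.36, adjusted p = 0.0483). The cause was not tested. Females only turned the monocyte and T cell sums to 0.083 and 0.15 log2 units, and leaving out 1 mouse moved them between -0.43 and 0.16 and between -0.55 and 0.00237. On log2(nRPKM + 1), r of the B cell sum with H2-Ab1 was 0.000852. No paired analysis was possible because the labels do not give the pairs in which mice were processed. The class II chains, with 7 and 6 mice, had a biological coefficient of variation of 0.833 to 0.947 and wide intervals. The part of sequencing depth in these intervals was not tested.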
